A study of Mus musculus with 6 samples.

Results

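The R-spondins and the secreted Wnt inhibitors set how strongly cells of the intestinal wall respond to Wnt ligands. The set examined here holds 10 mouse genes chosen by name: the R-spondins Rspo1, Rspo2 and Rspo3, the secreted frizzled-related proteins Sfrp1, Sfrp2, Sfrp4 and Sfrp5, the Dickkopf genes Dkk2 and Dkk3, and Wif1. They are 10 of the 23462 named genes on the array and are covered by 11 of its 56605 probes, 1 probe each and 2 for Dkk3. The data were single-colour Agilent whole-genome arrays of colon from 6 male mice, 3 controls and 3 labelled Islr knockout, with 1 array per mouse. The sample source states that all 6 animals, controls included, drank 3.5% dextran sulfate sodium, which injures the colonic epithelium, for 5 days and then recovered for 1 day, whereas the treatment field of the same labels says none. The labels used here name no strain, age, allele or Cre driver, so the cells in which Islr was removed are not known from them. Islr is a secreted protein with leucine-rich repeats and an immunoglobulin domain, made by stromal cells.

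As background, R-spondins are secreted proteins that bind the receptors Lgr4, Lgr5 and Lgr6 together with the membrane ubiquitin ligases Rnf43 and Znrf3, and so keep those ligases from removing Frizzled receptors from the cell surface. Without R-spondin the Wnt signal that maintains the crypt stem cells is weak. Secreted frizzled-related proteins and Wif1 bind Wnt ligands outside the cell, while Dkk2 binds the co-receptors Lrp5 and Lrp6. Stromal cells under the crypts are a main source of R-spondins in the gut.

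Promoter sequences were available for 5 of the 10 genes in the RefSeq table of build GRCm38.p6. The Sfrp, Dkk and Wif1 genes are known for silencing by methylation of CG dinucleotides in their promoters in colon cancer, so the windows of 4 genes are shown to let their CG content be compared. No methylation was measured in these samples. Each window runs 5′ to 3′ on the gene's strand from 250 to 31 bases before the annotated start, 220 bases in all, and capitals mark every CG. The windows lie at chr4:124986180-124986399 on the plus strand for Rspo1, chr19:42202283-42202502 on the minus strand for Sfrp5, chr3:132085042-132085261 on the plus strand for Dkk2 and chr10:121033754-121033973 on the plus strand for Wif1.
Rspo1: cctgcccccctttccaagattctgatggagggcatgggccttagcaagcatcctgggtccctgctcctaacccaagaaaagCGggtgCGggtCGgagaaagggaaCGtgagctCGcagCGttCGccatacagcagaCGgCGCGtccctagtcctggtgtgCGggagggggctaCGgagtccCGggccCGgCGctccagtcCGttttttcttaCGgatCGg
Sfrp5: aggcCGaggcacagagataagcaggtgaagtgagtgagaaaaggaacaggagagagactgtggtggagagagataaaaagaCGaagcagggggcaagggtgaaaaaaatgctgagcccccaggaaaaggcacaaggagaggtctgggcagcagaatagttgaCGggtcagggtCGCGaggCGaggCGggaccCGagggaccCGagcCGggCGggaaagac
Dkk2: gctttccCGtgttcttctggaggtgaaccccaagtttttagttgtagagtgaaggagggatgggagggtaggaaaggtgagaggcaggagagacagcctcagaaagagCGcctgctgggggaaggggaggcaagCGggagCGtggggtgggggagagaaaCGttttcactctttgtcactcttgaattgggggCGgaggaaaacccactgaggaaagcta
Wif1: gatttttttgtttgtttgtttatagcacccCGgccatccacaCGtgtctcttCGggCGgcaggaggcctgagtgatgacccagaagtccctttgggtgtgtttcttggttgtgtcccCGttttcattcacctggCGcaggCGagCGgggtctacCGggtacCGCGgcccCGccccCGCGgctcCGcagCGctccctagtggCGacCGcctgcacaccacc

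CG dinucleotides were frequent before Rspo1 and Wif1, with 18 in each window, and 85.6% of the 32851 promoters of the table had as many or fewer. Sfrp5 had 11 and Sfrp2, whose window is not shown, had 16. Dkk2 stood nearest the middle of all promoters, with 6 against a median of 5.0. The core CTTTGA, read by the TCF/LEF factors of the Wnt pathway, and the core GGAATG, read by the TEAD factors that partner YAP, were searched on both strands. Neither occurred in the windows of the 5 genes, where 12.6% and 11.4% of all promoter windows of that length hold them.

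Signals are given as log2 of the processed intensity relative to the array, so that 0 is the 75th percentile of that array; levels can be compared between arrays for 1 probe and not between probes. The 75th percentile itself was 4910.5 to 7110.5 intensity units, lower on each knockout array than on each control array. Between 69.4% and 75.4% of spots were well above background. The arrays of each genotype lay in 1 row of the slide, and row and genotype cannot be told apart. Islr checked the labels: its probe read 1.57, 1.24 and 1.21 in control replicates 1 to 3 and -1.40, -0.93 and -1.31 in the knockout animals, in the same order, a difference of -2.44 (SE 0.21, adjusted p = 0.0171 in limma, with control replicate 1 left out as an outlier spot). Islr kept its call in 3 of the 4 fits that could be made with 1 array fewer, with an adjusted p of 0.0580 in limma without knockout replicate 3. Epithelial, smooth muscle, fibroblast, endothelial and macrophage markers were all well above background on all 6 arrays (8 of 8, 10 of 10, 10 of 10, 8 of 8 and 8 of 8 genes), so these were mixed tissue samples, although the design note calls them flow separated. In such samples fewer cells of a type and less RNA per cell cannot be told apart.

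None of the 10 genes passed the test between genotypes. On simulated data the procedure found few small changes, so a missing call does not show that a gene was unchanged. With limma and a false discovery rate of 5%, 0 of their 10 tested probes were called, where 3.97% of all 35351 tested probes were. The adjusted p of the probes ran from 0.114 for Dkk2 to 0.990 for Sfrp4. At an unadjusted p under 0.05 the count was 4 of 10 (Rspo2, Rspo3, Sfrp1 and Dkk2), all with lower values in the knockout, where 14.1% of all tested probes reached that p in the same direction and 26.8% in either. Of the 10 differences 8 were below 0, against 50% of all tested probes. Their median was -0.65 on the log2 scale, and that of all 16451 tested named genes was 0.01. The genes were chosen with earlier results of these arrays in view, so these counts are a description of the set.

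Without overlap between the groups were 5 of the 10 tested probes (Rspo2, Rspo3, Sfrp1, Sfrp5 and Dkk2), all lower in knockouts when outlier spots are kept. The same held for 17.8% of all tested probes. For Dkk2 the groups almost touched, at -0.6048 in knockout replicate 2, an outlier spot, and -0.6001 in control replicate 2. Outlier spots are those the scanner software marked as uneven or discordant, and they were left out of the test. Among the 66 spots of the 11 probes 10 were such spots, in Rspo3, Sfrp1, Dkk2 and both Dkk3 probes. Control replicate 1 was an outlier spot in every one of these probes. Such spots made up 13.6% of control replicate 1 and 16% of knockout replicate 1, against 3.26% to 9.05% of the other arrays. In the text below each array's value is given with them kept, and the mean, difference and test without them.

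**Figure D1:**
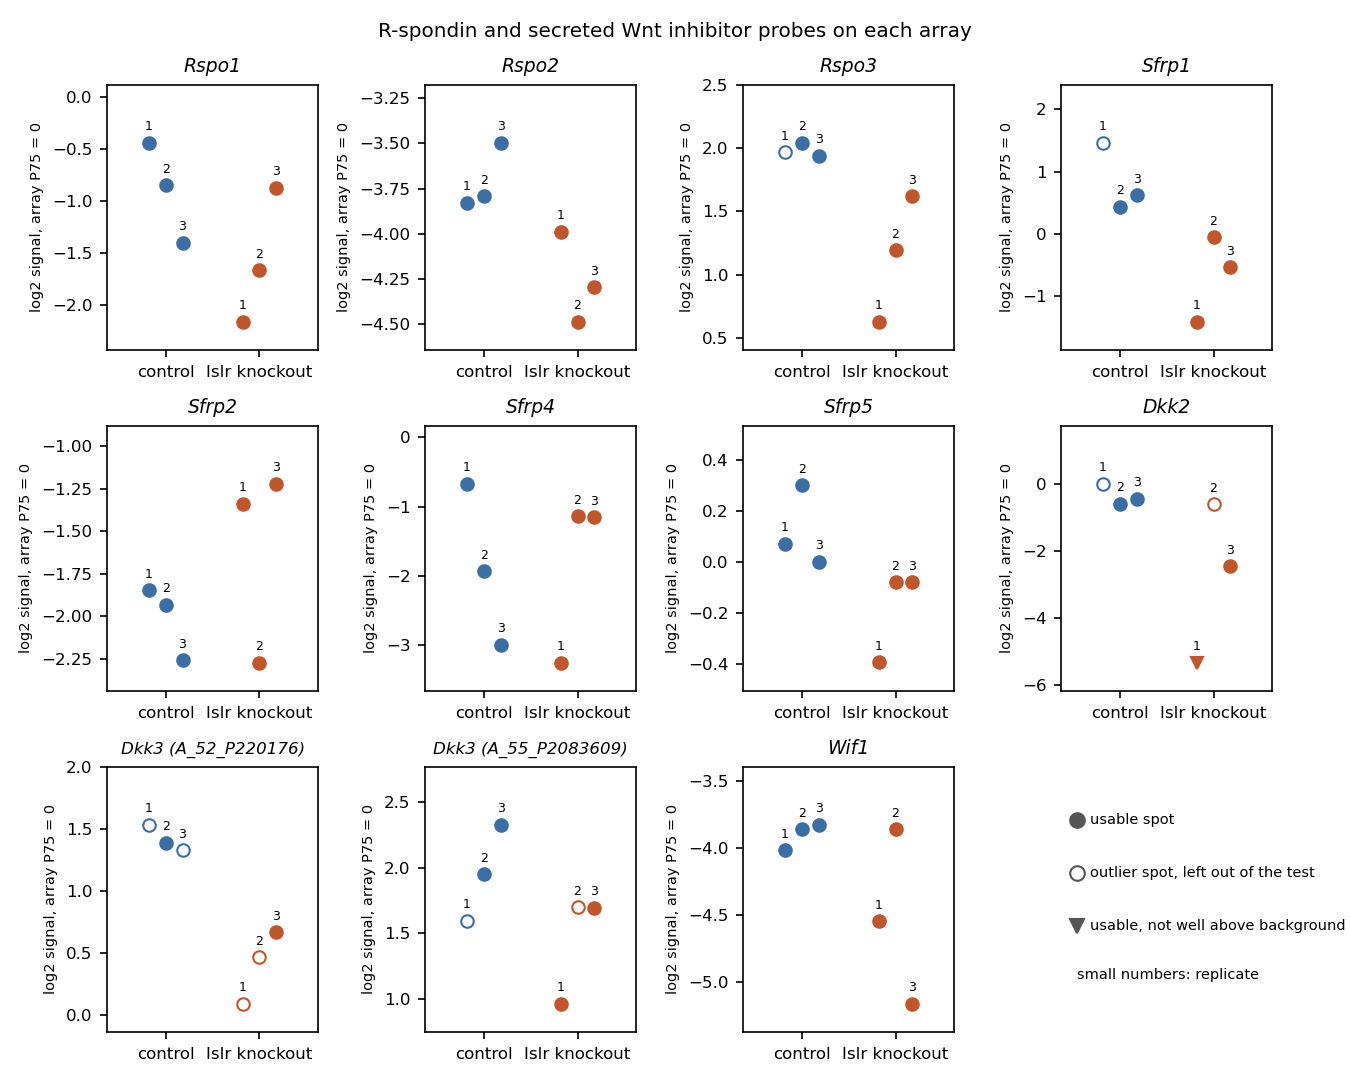
Log2 signal of each of the 11 probes on the 6 arrays, with 0 at the array's 75th percentile (P75); each panel has its own vertical scale, open circles are outlier spots left out of the test and small numbers are replicates. Knockouts lie below controls without overlap for Rspo2, Rspo3, Sfrp1, Sfrp5, Dkk2 and the dimmer Dkk3 probe, whereas the groups overlap for Rspo1, Sfrp2, Sfrp4, Wif1 and the brighter Dkk3 probe. The Dkk2 groups almost touch, at -0.6048 in knockout replicate 2 and -0.6001 in control replicate 2.

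Rspo3 is the R-spondin most studied as a crypt niche signal. Its probe (A_55_P2163659) read 1.97, 2.04 and 1.94 in control mice 1 to 3 and 0.63, 1.19 and 1.62 in knockout mice 1 to 3. The controls were close together and the knockouts spread below them, with replicate 1 lowest. Controls averaged 1.99 ± 0.07 (SD, n = 2 usable spots) and knockouts 1.15 ± 0.50 (SD, n = 3), which left a difference of -0.84 (95% interval -1.63 to -0.06) that did not pass (adjusted p = 0.161 in limma).

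Rspo2, a close relative that acts through the same receptors, gave a dim signal that was well above background on all 6 arrays. Its log2 signal was -3.83, -3.79 and -3.50 in the controls and -3.99, -4.49 and -4.29 in the knockouts. The groups did not overlap, although the gap between their nearest values was smaller than the range of either group. The means were -3.71 ± 0.18 and -4.26 ± 0.25 (SD, n = 3 each), a difference of -0.55 with a 95% interval of -1.01 to -0.09 and an adjusted p of 0.129 in limma. Weighting the arrays by their quality, a setting under which 8119 of 35351 tested probes were called, took Rspo2 past the threshold (-0.62, adjusted p = 0.0316 in limma). No other setting did so for the main probe of a gene in the set.

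Rspo1, known for its potency as an intestinal growth factor when injected, had a range within each genotype wider than the difference between the genotype means. The controls read -0.44, -0.85 and -1.40 and the knockouts -2.16, -1.66 and -0.87, so knockout replicate 3 lay within the control range. The difference was -0.67 (95% interval -1.59 to 0.25, adjusted p = 0.312 in limma), and it was -0.37 without knockout replicate 1. The fourth R-spondin gene, Rspo4, was on the array with 2 probes and was well above background on none of the 6.

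Sfrp1 was the frizzled-related gene with the largest difference. Its probe read 1.46, 0.44 and 0.62 in controls, the value of replicate 1 being an outlier spot, and -1.41, -0.05 and -0.53 in knockouts. Every knockout lay below every control, with replicate 1 again lowest. Usable control spots averaged 0.53 ± 0.13 (SD, n = 2) and knockout spots -0.66 ± 0.69 (SD, n = 3), a difference of -1.19 (95% interval -2.21 to -0.18, adjusted p = 0.138 in limma). With the outlier spot kept it was -1.50, and the exact two-sided permutation test of 3 against 3 arrays gave p = 0.1, the smallest it can give.

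Sfrp5 showed a small difference in the same direction. Its 3 control values were 0.07, 0.30 and 0.00, and the knockout values were -0.39, -0.08 and -0.08. The gap between the groups was smaller than the range of either, and the difference of -0.31 (SE 0.17, 95% interval -0.71 to 0.10) did not pass (adjusted p = 0.292 in limma).

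Sfrp2 had values in the opposite direction. Controls read -1.85, -1.93 and -2.26 and knockouts -1.34, -2.28 and -1.22, so 2 knockouts lay above all controls and knockout replicate 2 below them. The difference was 0.40 (95% interval -0.33 to 1.13, adjusted p = 0.437 in limma). It was 0.21 without knockout replicate 3 and 0.73 without knockout replicate 2 (adjusted p = 0.760 and 0.103).

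Sfrp4 was spread over more than 2 log2 units in both groups. Controls read -0.67, -1.93 and -2.99, and knockouts read -3.25, -1.13 and -1.15. The difference of 0.02 had a 95% interval of -1.81 to 1.85 (adjusted p = 0.990 in limma), so changes from 3.50-fold lower to 3.59-fold higher lie within it. Its sign turned when the 75th percentile was taken over the probes detected on all arrays (-0.050) and when control replicate 2 or 3 or knockout replicate 2 or 3 was left out.

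Sfrp4 was high on the arrays on which several fat cell genes were high. Of 6 adipocyte markers fixed as a list, 5 were well above background on all 6 arrays and none was at background on all. The mean log2 signal of the 4 tested ones was 0.85 in control replicate 1, -0.37 in knockout replicate 2 and -0.45 in knockout replicate 3, and -2.94 to -3.38 on the other 3 arrays. Adipoq, the fat cell hormone adiponectin, read 2.19 in control replicate 1, -0.63 and -0.46 in knockout replicates 2 and 3, and -4.11, -5.04 and -4.88 in control replicates 2 and 3 and knockout replicate 1. The same 3 arrays held the 3 highest Sfrp4 values, 1 in controls and 2 in knockouts. They also held the 3 highest values of Plin1, Cfd and Retn, but not those of the other 2 markers. Lep, the gene of the hormone leptin, was lowest in control replicate 1 (-3.46) and read -2.95 and -2.73 in control replicates 2 and 3. Fabp4, a fatty acid carrier, read 2.66 in knockout replicate 2 and 2.72 in control replicate 3. The part of these markers in the Sfrp4 values was not tested.

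**Figure D2:**
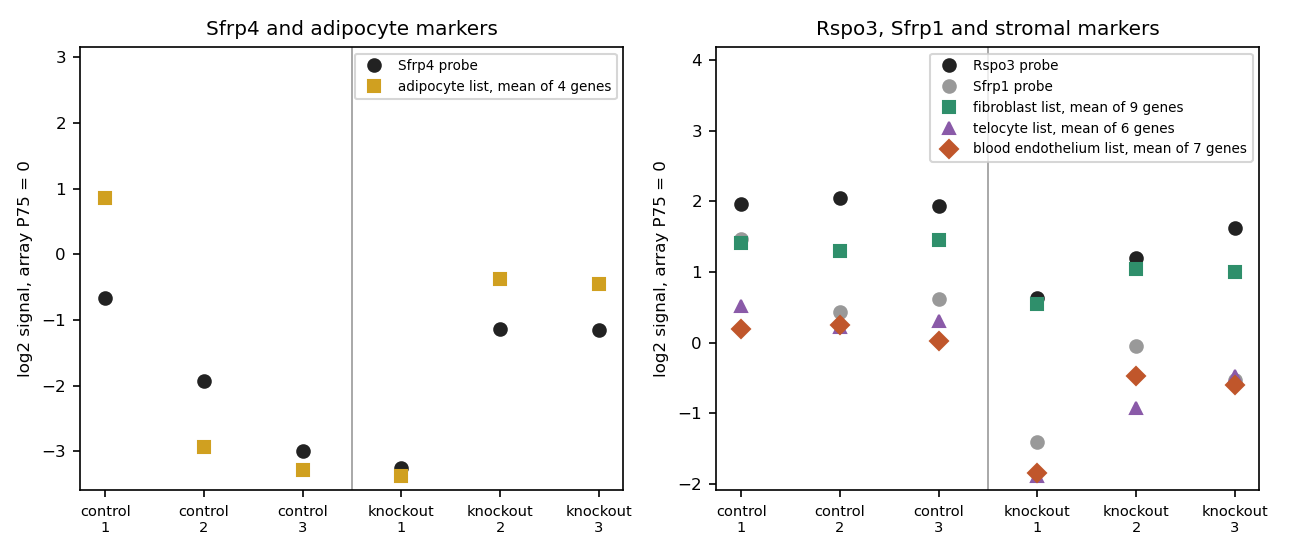
Log2 signal (0 is the array's 75th percentile, P75) on each array of Sfrp4 with the mean of the adipocyte list at left, and of Rspo3 and Sfrp1 with the means of 3 stromal lists at right, outlier spots kept. Sfrp4 and the adipocyte list are both highest in control replicate 1 and in knockout replicates 2 and 3; Rspo3, Sfrp1 and the stromal lists are all lowest in knockout replicate 1.

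Dkk2, which blocks the Lrp co-receptors, had the largest difference of the set and the least certain one. It read 0.00, -0.60 and -0.44 in controls, which were close together. The knockouts read -5.34, -0.60 and -2.46. Knockout replicate 1 was not well above background, and replicate 2, an outlier spot, was at the level of the controls. Without outlier spots the difference rested on 2 arrays per group, with means of -0.52 ± 0.11 for controls and -3.90 ± 2.03 for knockouts (SD, n = 2 each), which gave -3.38 (95% interval -5.91 to -0.85, adjusted p = 0.114 in limma). With all 6 spots kept it was -2.45 (adjusted p = 0.199 in limma), and -1.19 when knockout replicate 1 was also left out.

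Dkk3 is a divergent Dickkopf that is not known to block Lrp6. Its brighter probe (A_55_P2083609) read 1.60, 1.95 and 2.33 in controls and 0.96, 1.70 and 1.69 in knockouts, with overlap between the groups. The difference was -0.81 from 2 usable arrays per group (95% interval -1.68 to 0.06, adjusted p = 0.209 in limma) and -0.51 with outlier spots kept. The other probe (A_52_P220176) had 1 usable value per group and was not tested. With its outlier spots kept it read 1.53, 1.39 and 1.33 in controls and 0.09, 0.47 and 0.67 in knockout mice, without overlap. The fit with all outlier spots kept, under which 1948 of 40172 tested probes were called, gave that probe a difference of -1.01. Its adjusted p was 0.0415 in limma, which rose to between 0.0557 and 0.121 when any array was left out.

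Wif1, a secreted protein that binds Wnt ligands through its own WIF domain, was dim in both genotypes. Controls read -4.02, -3.86 and -3.83 and knockouts -4.55, -3.86 and -5.17, so knockout replicate 2 was at the control level. The difference was -0.62 (95% interval -1.40 to 0.15, adjusted p = 0.268 in limma). It was -0.30 without knockout replicate 3 and -0.96 without knockout replicate 2 (adjusted p = 0.556 and 0.0847).

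**Figure D3:**
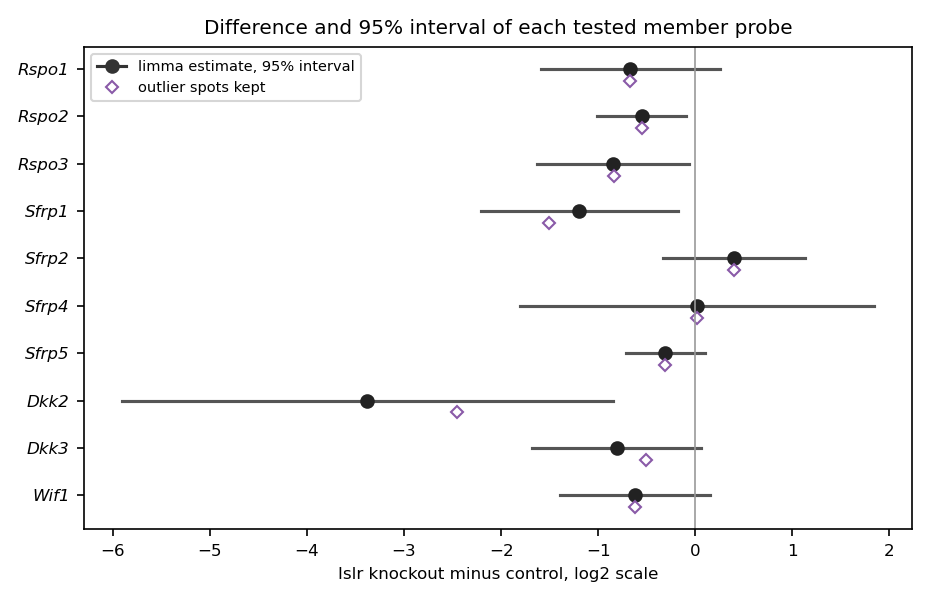
Difference between Islr knockout and control on the log2 scale for the 10 tested probes, with limma's 95% interval (filled circles and bars, outlier spots left out) and the same difference with outlier spots kept (open diamonds). The interval lies below 0 for Rspo2, Rspo3, Sfrp1 and Dkk2 and none of the 10 passes after adjustment over all tested probes; the Dkk2 and Sfrp1 estimates move most when outlier spots are kept.

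Knockout replicate 1 was the lowest knockout for 8 of the 11 probes, as it was for 46.9% of all tested probes. Leaving it out with outlier spots kept gave -0.58 for Rspo3 (adjusted p = 0.168 in limma) and -1.13 for Sfrp1 (adjusted p = 0.170), and 9 of the 11 probes still had a lower mean in the knockout. In the same samples the stromal marker lists were low. The mean of the fibroblast list was 1.30 to 1.46 in controls and 0.55 to 1.04 in knockouts, over 9 tested genes. That of the subepithelial telocytes, the thin stromal cells beneath the crypts, was 0.22 to 0.51 and -1.89 to -0.48, with 5 of 6 markers well above background on all arrays.

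Vessel markers followed the same order of groups. The blood endothelial list was at 0.02 to 0.24 in controls and -1.85 to -0.48 in knockouts, and the lymphatic endothelial list at -1.19 to -0.89 and -2.23 to -1.56 (5 of 6 markers well above background on all arrays). The mesothelial list lay at -1.003 to -0.91, and in knockouts at -2.06 to -0.66. Smooth muscle markers went the other way, with 1.73 to 2.10 in controls and 2.26 to 2.36 in knockouts. No marker of these 6 stromal, vessel and muscle lists was at background on all arrays, and knockout replicate 1 was lowest in each of the 5 lists other than smooth muscle. Neutrophil markers were lower still, with 5 of 7 tested genes called lower in limma, where 2.47% of all tested named genes were. Csf3r alone was higher (0.17, adjusted p = 0.483 in limma). The list means were 0.89 to 1.22 in controls and -2.41 to -1.22 in knockouts (7 of 8 markers well above background on all arrays). Macrophage markers had 0 of 7 tested genes called in limma, and means of 0.74 to 1.56 in controls and 0.04 to 0.60 in knockouts. Of the 7 genes 4 were lower at an unadjusted limma p under 0.05, where 14.1% of all tested probes were. Skeletal muscle markers were higher, with 3 of 8 tested genes called higher in limma, where 1.35% of all tested named genes were. Actn3 alone was lower (-0.79). The list means were -3.68 to -3.32 in controls and -2.32 to -1.79 in knockouts (6 of 10 well above background on all arrays, and Mb on none). The part of any of these markers in the values of Rspo3, Sfrp1, Dkk2 and the other genes was not tested.

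The 5 genes of the R-spondin receptor list had a mean log2 signal of -3.26 to -2.84 in controls and -2.49 to -2.34 in knockouts, without overlap. They did not move together: at the brightest probe 3 were higher in knockouts and 2 lower. Of these 5 R-spondin receptor genes, all tested, Rnf43 rose from -1.98 ± 0.56 to 0.13 ± 0.42 (SD, n = 3 each), a change of 2.11 with SE 0.34 and a limma adjusted p of 0.0349. The call was lost when dim probes were not filtered out (adjusted p = 0.0540). The epithelial marker list, with 8 of 8 markers well above background on all arrays, lay at 0.44 to 2.60 in controls and at 2.97 to 3.38 in knockouts, and its part in the Rnf43 and Lgr4 values was not tested. The other 4 were not called. Lgr4 differed by 0.95 (SE 0.37, adjusted p = 0.174 in limma), Lgr5 by -0.20 (SE 0.30, adjusted p = 0.696) and Znrf3 by -0.21 (SE 0.30, adjusted p = 0.690) at its brightest probe. Other tested probes of Znrf3 differed by -0.62 (SE 0.18, adjusted p = 0.0961 in limma) and -0.10 (SE 0.23, adjusted p = 0.813). Rnf43 is both a receptor partner and a target of the pathway, and it kept its call in 2 of the 6 fits with an array left out. Its adjusted p in limma was 0.0845 and 0.0914 when control mouse 2 or 3 was dropped, and 0.0771 and 0.0887 when knockout mouse 1 or 3 was.

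Across the 6 pathway lists 77 of 79 listed names were found on the array and 61 genes were tested. Of the tested genes 2 were called lower and 1 higher. Of all 16451 tested named genes 2.47% were called lower and 1.35% higher, 3.82% together. The lists were fixed with earlier results of these arrays known. The list of other secreted Wnt modulators had 13 names, of which 11 were found on the array and 5 were tested. Krem1 and Krem2, as spelled in the list, matched no probe name. The log2 signal of Igfbp4 fell by 2.45 (SE 0.44, adjusted p = 0.0468 in limma), from a control mean of 1.51 ± 0.26 (SD, n = 2) to -0.94 ± 0.73 (SD, n = 3). Igfbp4 is best known for binding insulin-like growth factors and can also bind Wnt receptors. Its second probe fell by 1.65 (SE 0.24, adjusted p = 0.0300) in limma. The first lost its call without knockout replicate 1, 2 or 3 (limma adjusted p = 0.0504, 0.0547 and 0.0936), and could not be tested without control replicate 2 or 3. With outlier spots kept, the call held without knockout replicate 1 or 2 (0.0328 and 0.0358). It was then lost without control replicate 2 or 3 or knockout replicate 3 (0.0757, 0.0663 and 0.0689). With all 6 arrays it was lost when the percentile was taken over detected probes (0.0542) or dim probes were not filtered out (0.0747). Dkk1, Sost, Cer1 and Draxin were well above background on no array, and the tested Sostdc1 and Frzb differed by -1.63 (adjusted p = 0.0872) and -0.64 (adjusted p = 0.298).

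Among the Wnt ligands and their secretion factors 15 of 21 genes were tested. Wnt2, a stromal ligand, was the 1 called, with a difference of -2.63 (SE 0.20, adjusted p = 0.00944 in limma); only 1 of the 3 knockout arrays had it well above background, so the size is uncertain. Wnt2b, its close relative, differed by -1.31 (adjusted p = 0.0770) and was likewise well above background on 1 knockout array. Of 15 Wnt receptor genes 12 were tested, of 12 genes of the beta-catenin core 11, and of 13 Wnt target genes 13. In each list 0 were called at the brightest probe in limma. At an unadjusted p under 0.05 in limma the counts were 2 of 12, 3 of 11 and 7 of 13. For the Wnt ligand list the count was 5 of 15. Of all tested probes 26.8% reached that p in either direction. Of the 13 targets 7 had values above 0 and 6 below. Axin2, a direct readout of the pathway, differed by -0.55 (SE 0.36, adjusted p = 0.376). The 7 with an unadjusted p under 0.05 lay on both sides: Ephb2 at 1.61, Sox9 at 1.52, Ccnd1 at 0.84 and Ascl2 at 0.62, and Cd44 at -1.45, Smoc2 at -1.06 and Sp5 at -0.86, with adjusted p from 0.0609 to 0.136 in limma. A dimmer probe of Cd44, another target, was called (-1.48, SE 0.25, adjusted p = 0.0369). The median difference of the lists was -0.64 for the other modulators, 0.29 for R-spondin receptors, -0.12 for Wnt receptors, -0.46 for Wnt ligands, -0.04 for the core and 0.03 for the targets.

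**Figure D4:**
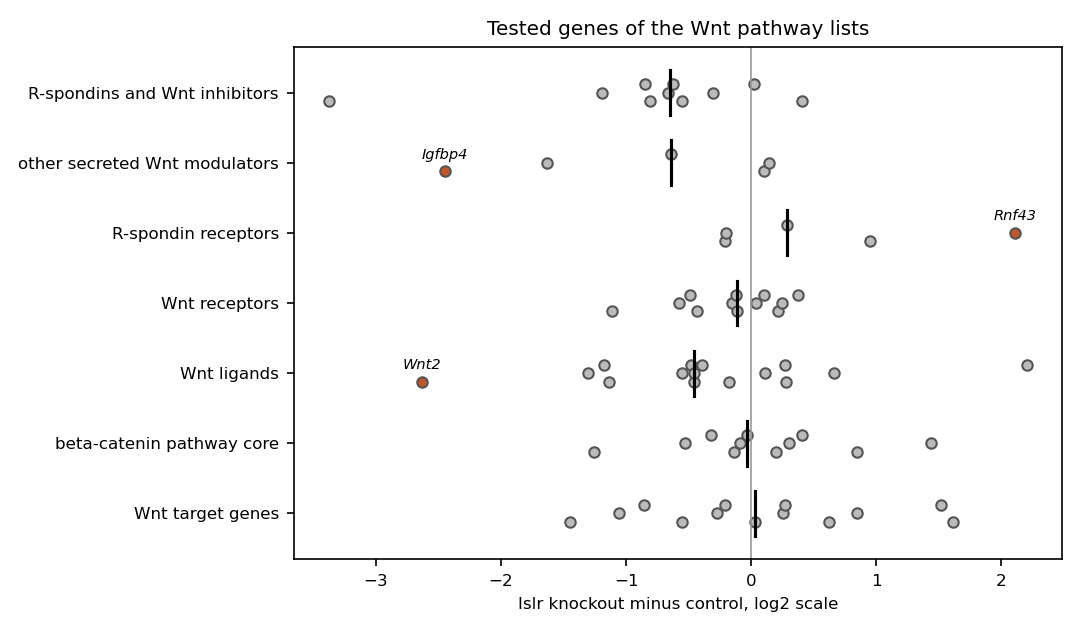
Difference between Islr knockout and control (log2 scale) for every tested gene of the set and of the 6 pathway lists at its brightest probe; orange points passed at a 5% false discovery rate, grey points did not, and black bars are list medians. Igfbp4 and Wnt2 lie at the low end and Rnf43 at the high end as the 3 called genes, and no gene of the R-spondin and inhibitor set is called.

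Profiles most like those of the set were sought among 17118 probes. The search used the brightest R-spondin and frizzled-related probes with a usable value well above background on all 6 arrays. Nearest to Rspo1 were Afap1l2 (Pearson r = 0.992), Copz2 (0.991) and Clec4b1 (0.984). Nearest to Sfrp5 were Layn (0.994), Ercc1 (0.993) and Mmrn2 (0.991). These correlations cover 6 arrays that share slide and scan and include the step between genotypes. They were picked as the highest among the 17118 probes, so high values come with the choice. None of the 6 genes was called between genotypes.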

How the data were processed

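Colon RNA of 6 mice was hybridised to 1 array each; groups follow the genotype label, and replicate numbers only name the animals. The scans of design 074809 went through Feature Extraction 11.5.1.1, per the file headers; the submitters' processing notes name version 10.7. The labels name Cy3 and a green column, whereas the deposited files held the red channel alone. The deposited processed signal is a linear intensity, background-subtracted and spatially detrended, per the file headers, and not scaled between arrays. The series' value table held the same intensities as the deposited scanner files (log2 correlation of at least 0.999999).

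From these intensities log2 was taken and each array's 75th percentile over 59305 non-control spots subtracted. Outlier spots were treated as missing and spots of a probe averaged. A probe entered the test (35351 of 56605 did) where every array of 1 or both genotypes had it well above background and each genotype kept at least 2 usable values. The fit used limma 3.58.1 under R 4.3.3 (lmFit, then eBayes), genotype as the only term, two-sided, Benjamini-Hochberg adjustment over all tested probes. Nothing in the labels says more of how the animals were paired or housed, so p-values measure the spread between these samples; 3 arrays per group limit the precision. On simulated data with 200 changed probes among 35351, the procedure recovered 48% of them, and 5 of its 101 calls were false. It recovered 7.58% of the changes of size 1, 61.2% of size 2 and 74.6% of size 3. Small changes would therefore mostly go uncalled. Probes were named through RefSeq accessions in GRCm38.p6 (33767 probes, 59.7%); the files place probes on mm9, so no probe coordinates are given. The brightest tested probe stood for a gene in lists.

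Named genes were the set with every probe, Islr, called pathway genes and 6 pathway genes fixed by name. Added to these were the 3 genes most correlated with the brightest R-spondin and frizzled-related probe that had 6 usable values well above background. Sostdc1, Frzb, targets other than Axin2 and further probes of pathway genes were named with their values already seen. The set and the lists were chosen with earlier results of these data known. Alternatives were normexp background (offset 50), quantile normalization, both, median centring, the percentile over detected probes, outlier spots kept, looser and stricter background filters, array weights, the value table, an intensity trend, mean probes and leaving out each array.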

Additional observations from a re-analysis of the deposited data

How the results depend on the processing

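Of 10 genes none was called under any setting except Rspo2 with array weights (1 gene, 1 of 10 tested probes). Array weights called 8119 of all 35351 tested probes. The dimmer Dkk3 probe was called with outlier spots kept (1 of 11 tested probes), a setting that called 1948 of all 40172 tested probes. Sfrp4 changed sign with the 75th percentile over detected probes (-0.050) and lay between -0.54 and 0.72 with an array left out; the other 9 genes kept their direction in every fit in which they could be tested. The median of the set was -0.71 to -0.41 over all settings, which did not all test the same genes. The value of -0.41, without control replicate 2, covers the 6 genes that could then be tested. With outlier spots kept it was -0.60 over 10 genes.

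Over all probes, calls lower and higher were 1252 and 1306 with normexp, 1421 and 764 with quantile normalization, 1671 and 1102 with both, 1452 and 797 with median centring, 321 and 163 without the background filter, 4003 and 4116 with array weights and 1139 and 934 with an intensity trend, against 855 and 548. The share of calls that were higher, 39.1%, was 51.1% with normexp and 50.7% with array weights. Pathway genes called lower and higher were 3 and 2 with normexp, 4 and 1 with quantile normalization, 4 and 3 with both, 4 and 2 with median centring, 1 and 1 with the percentile over detected probes and with the stricter filter, 1 and 0 without the filter, 9 and 8 with array weights and 3 and 4 with an intensity trend, against 2 and 1. The cause was not tested.

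Leaving out 1 array, also with outlier spots kept, which was added after seeing the data, gave 36 to 1330 calls lower and 4 to 1855 higher, the fewest without knockout replicate 3 and the most without control replicate 1. Pathway calls were 1 to 4 lower and 0 to 3 higher. Wnt2 kept its call in all of these fits, whereas Rnf43 and Igfbp4 lost theirs in some (limma adjusted p up to 0.0924 and 0.0936). Wnt2 was well above background on only 1 of the 3 knockout arrays, so it was not tested under the stricter filter. Rnf43 and Igfbp4 were well above background on all 6 arrays. Members with outlier spots could not be tested without some arrays unless those spots were kept. Slide row could not be fitted as a block. No paired analysis was possible because the replicate numbers only name the animals.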

Other observations

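The transcription factors that read the Wnt signal in the nucleus gave values in both directions. The 3 tested probes of Tcf7l2, the main such factor of gut epithelium, differed by 1.44, 1.34 and 0.97 on the log2 scale (limma adjusted p = 0.0665, 0.0796 and 0.0534), and Lef1, the factor best known from lymphocytes and mesenchyme, by -1.26 (adjusted p = 0.114). Sox9, a crypt target, differed by 1.52 and 1.27 at its tested probes (adjusted p = 0.0649 and 0.0530). None passed, and these genes were picked after their values were seen. The epithelial marker list was at 0.44 to 2.60 in controls and 2.97 to 3.38 in knockouts, without overlap; its part in these values was not tested.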
